A study of Ovis aries with 7 samples.

Results

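Mitochondria keep a ribosome of their own, which translates the few mRNAs encoded by mitochondrial DNA into subunits of the respiratory chain and the ATP synthase. Its RNAs come from the mitochondrial genome, but all of its proteins are encoded in the nucleus, made in the cytosol and imported. The early embryo inherits its mitochondria from the egg, and loss of several of these ribosomal proteins stops mouse embryos early in development.

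The genes described here are the rows of the deposited expression table whose name begins with MRPL or MRPS followed by a number, a rule that uses names and no measured value. It found 75 genes of 31304 rows, of which 51 encode proteins of the large subunit and 24 proteins of the small subunit. MRPS30 and MRPS18A are counted with the large subunit, where their proteins sit despite their names. By ancestry, 44 of the 75 proteins have a counterpart in the bacterial ribosome and 31 are specific to mitochondria.

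PolyA RNA was amplified and sequenced with Smart-seq2 from 8-cell sheep embryos (Ovis aries). The labels name 4 SCNT samples, from embryos cloned by placing a body cell's nucleus in an enucleated egg, and 3 samples from embryos made by in vitro fertilization (IVF). The labels give neither breed, donor cell type, culture medium nor the number of embryos per library. MRPS16 and MRPS17 were not analysed here. Columns for the IVF samples carry those samples' names, whereas the 4 other columns carry a name that no label uses, so SCNT embryos were not analysed here and no difference between SCNT and IVF embryos is given.

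Values are TPM, a measure of transcript abundance relative to gene length and to the total of the library. Means are given ± SD over n = 3 IVF libraries unless each library is named. Since TPM does not carry sequencing depth, neither counting intervals nor floors can be given. Each group was run in at least 3 independent trials according to the labels, but which library belongs to which trial is not stated, and technical error may form a portion of the SD. With a single group no contrast can be tested, and even an exact sign-flip test of a difference between gene lists over 3 libraries could not give a two-sided p under 0.25. All that follows is therefore description. In whole embryos, fewer cells expressing a gene and less RNA per cell cannot be told apart.

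Genes of the oocyte and early embryo marked these libraries. Of 15 such markers with a row, 13 were at 1 TPM or more in every library, and their summed level was 2530.4 to 3656 TPM. Summed levels were 22.3 to 64.1 TPM for 9 cumulus cell markers, 12.2 to 19.1 TPM for 10 fibroblast markers and 3.84 to 6.67 TPM for 6 sperm markers. PTX3, POSTN, PRM1 and AKAP4 were listed at 0 throughout. All 4 sums were highest in IVF replicate 2, that of oocyte and embryo markers included. Of the cumulus sum of 64.1 TPM there, 44.0 TPM came from GJA1. That replicate also had the most genes at least 2-fold from the mean of the other libraries, and the part of other cells in this was not tested.

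Mitochondrial ribosomal protein genes were nearly all expressed. In every IVF library 73 of the 75 reached 1 TPM, while 49.0% of 16526 rows with a gene symbol passed the same rule. At 10 TPM or more in all libraries stood 67 of 75 members, against 21.7% of symbol rows. At 100 TPM or more stood 24 members, against 4.73% of symbol rows. The median member was at 59.8, 64.1 and 74.7 TPM in IVF replicates 1, 2 and 3, a mean of 66.2 ± 7.64 TPM. The median symbol row was at 1.46, 1.74 and 1.32 TPM in the same libraries. Together the 75 genes took 0.988, 0.890 and 1.02% of all TPM, a mean of 0.965 ± 0.0660%.

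**Figure D1:**
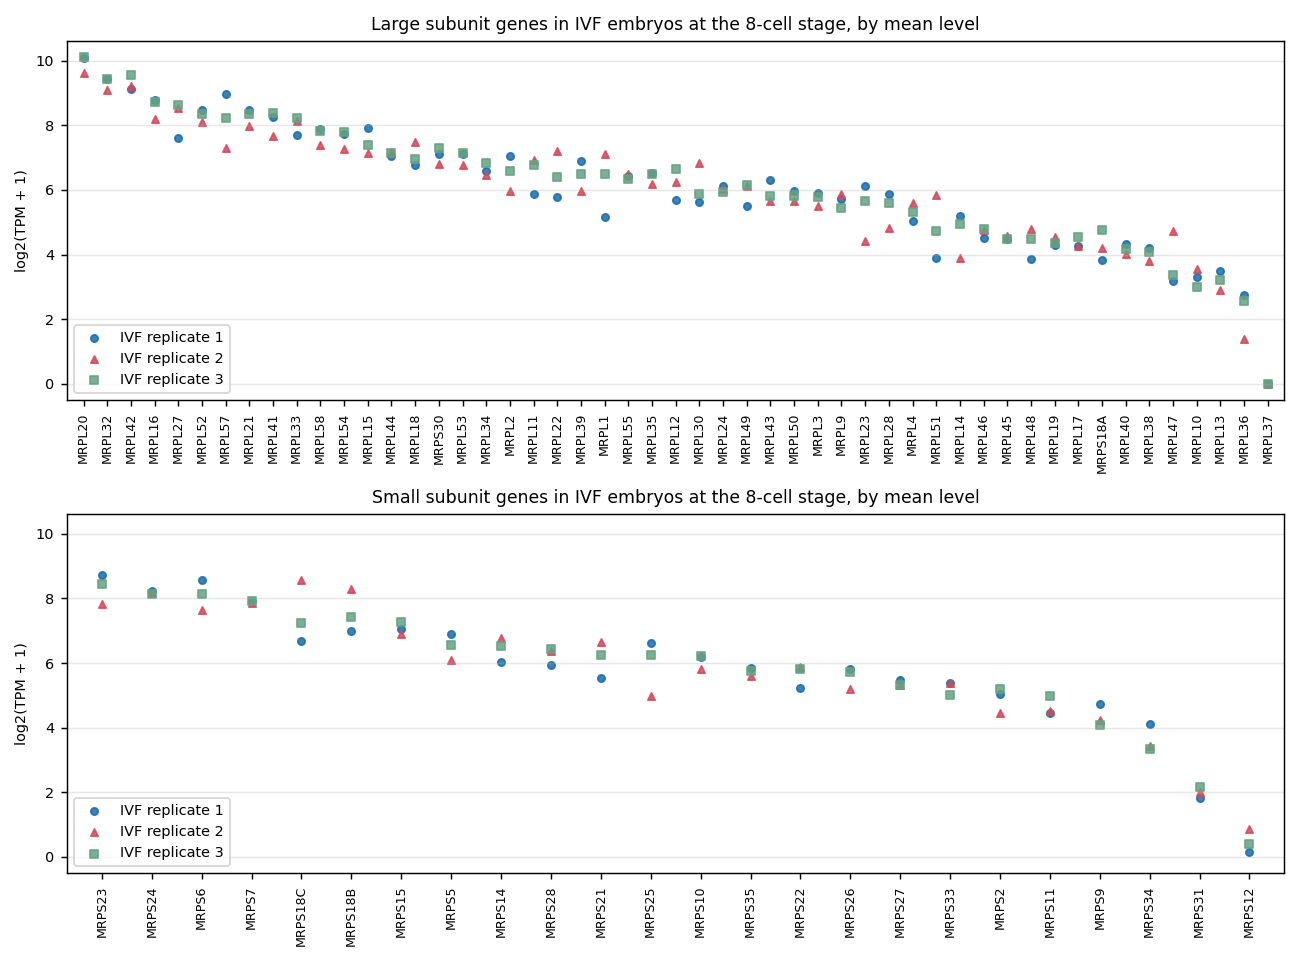
Each mark is the level of 1 gene in 1 IVF library, on the log2(TPM + 1) axis, with large subunit genes in the upper panel and small subunit genes in the lower, each ordered by mean level. Levels fall from MRPL20, at 779 to 1103.5 TPM, to MRPL37, listed at 0 in all 3 libraries, and marks of the same gene mostly lie close together compared with that range.

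The members were far from equal, although most of their proteins are single-copy parts of the ribosome. The 10 most abundant took 46.7 ± 3.79% of the TPM of all 75. MRPL20, whose bacterial counterpart binds ribosomal RNA early in assembly, led with 1080.4, 779 and 1103.5 TPM in IVF replicates 1, 2 and 3. It was above every other member in each library, and alone made up 10.2 ± 1.24% of the members' TPM. MRPL32, a large subunit protein cut to its mature form by a protease of the inner membrane in yeast and mouse, was at 695, 548 and 686 TPM. MRPL42, a protein with no bacterial counterpart, was at 552, 593 and 745 TPM. The ranges of MRPL32 and MRPL42 overlapped, and both lay above MRPL16, the next in order, in every library.

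The rest of the 10 had means between 289 and 385 TPM, but lay further apart within each library. In replicate 1 they ran from MRPL27 at 193 TPM to MRPL57 at 495 TPM. MRPL16, which lies at the large subunit's catalytic side, was at 442, 291 and 423 TPM. MRPS23, a mitochondria-specific small subunit protein, was at 425, 227 and 344 TPM. MRPL27, whose bacterial counterpart reaches toward the peptidyl transferase center, was at 193, 368 and 393 TPM. The large subunit genes MRPL52, MRPL57 and MRPL21 averaged 317 ± 41.1, 316 ± 170 and 308 ± 51.9 TPM. MRPS24, the counterpart of bacterial S3, was at 296, 288 and 283 TPM. Of these 10 genes 8 belong to the large subunit and 2 to the small, and of the lowest 10 members 7 and 3 do.

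At the other end, MRPL37, a mitochondria-specific large subunit gene, was listed at 0 in all 3 libraries. No other gene overlaps it in the reference annotation. MRPS12, the counterpart of the bacterial decoding protein S12, was at 0.105, 0.818 and 0.315 TPM, with a mean of 0.413 TPM that was 0.210 TPM without replicate 2. Both encode proteins of the assembled ribosome. Other genes that dividing cells use, such as the cytosolic ribosomal protein gene RPL27, were listed at 0 like MRPL37, and the reason was not tested. A 0 is therefore given here only as the listed value.

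MRPS31 was at 2.52, 3.03 and 3.44 TPM, and MRPL36, counterpart of a small zinc-binding bacterial protein, at 5.78, 1.64 and 4.85 TPM. MRPL13 and MRPL10 followed at 8.32 ± 1.94 and 8.87 ± 1.90 TPM. MRPS34, MRPL47, MRPL38 and MRPL40 completed the lowest 10, between 11.7 ± 3.90 and 17.1 ± 1.85 TPM. The low end was better separated than the middle. Of 74 neighbouring pairs in the order of means, 5 had ranges over libraries that did not overlap. These were MRPL20 over MRPL32, MRPL42 over MRPL16, MRPL13 over MRPL36, MRPS31 over MRPS12 and MRPS12 over MRPL37. In 11 of the 74 pairs the order was the same in all 3 libraries, so most neighbours did not differ beyond their spread.

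Large and small subunit genes had similar typical levels. The median large subunit gene was at 61.2, 69.2 and 79.3 TPM in IVF replicates 1, 2 and 3, and the median small subunit gene at 58.4, 57.1 and 74.0 TPM. On the log2(TPM + 1) scale the large subunit median exceeded the small by 0.07, 0.27 and 0.10, a mean of 0.15 ± 0.11. The mean level per gene, which the few most abundant genes weigh on, was 141 ± 13.4 TPM for the large subunit and 103 ± 1.27 TPM for the small. The subunits' shares of all TPM were 0.739, 0.641 and 0.772% for the large and 0.249, 0.249 and 0.244% for the small. As a sum, the large subunit's share thus varied more between libraries. The small subunit's sum includes MRPS18C and MRPS18B, which were highest in replicate 2, at 379.9 and 312 TPM. Of small subunit genes averaging 5 TPM or more, 7 of 22 were above the mean of the other libraries there, against 20 of 49 large subunit genes.

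The median gene with a bacterial counterpart was somewhat above the median gene specific to mitochondria. Medians were 61.9, 78.6 and 84.3 TPM for genes with a counterpart, against 56.9, 49.9 and 55.7 TPM for mitochondria-specific genes. The log2 difference was 0.12, 0.64 and 0.59 in the 3 libraries, a mean of 0.45 ± 0.29. It had the same sign in 3 of 3 libraries but was small in replicate 1. The lower quartile of gene means kept that order, at 36.8 and 23.3 TPM, but the upper quartile reversed it, at 148 and 167 TPM. Both ancestries spanned the order, with 6 and 4 genes among the 10 highest and 5 and 5 among the 10 lowest.

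Within a single region of the large subunit, genes spanned a wide range of levels. In the stalk, which recruits translation factors, MRPL54 and MRPL53 were at 195 ± 36.3 and 128 ± 16.7 TPM. MRPL11 was at 57.4, 122 and 107 TPM and MRPL12 at 51.0, 75.3 and 99.0 TPM. MRPL12 is the counterpart of bacterial L7/L12, which the ribosome carries in several copies, yet its mRNA was near the median member. MRPL10, which anchors MRPL12, was at 8.99, 10.7 and 6.91 TPM, below MRPL12 in every library.

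Around the exit of the peptide tunnel, MRPL22 was at 54.1, 147 and 83.8 TPM and MRPL24 at 68.2, 64.1 and 60.5 TPM. MRPL23 was at 68.3, 20.3 and 49.1 TPM, the reverse order of libraries from MRPL22. MRPL45, which tethers the ribosome to the inner membrane, was at 21.1, 22.6 and 21.5 TPM. MRPL17 averaged 19.7 ± 2.39 TPM. MRPL47 was at 8.08, 25.6 and 9.38 TPM, and its mean of 14.3 TPM was 8.73 TPM without replicate 2. In the central protuberance, which contacts tRNAs, MRPL18 stood at 136 ± 37.3 TPM. MRPL46, MRPL48, MRPL40 and MRPL38 of the same region lay between 12.9 and 26.9 TPM over all libraries. All 4 were below MRPL18 in every library.

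Other members with known roles were spread over the same range. MRPL2, a core protein of the catalytic center, was at 131, 61.8 and 95.1 TPM. MRPL44, which has a domain related to ribonuclease III, was at 132, 144 and 141 TPM. MRPL58, which can release peptides from stalled ribosomes, was at 233, 167 and 225 TPM. MRPS30, the large subunit protein with a small subunit name, was at 136, 110.1 and 156 TPM.

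The MRPS18 paralogs are all related to bacterial S18 and occupy different places in the ribosome, and only MRPS18C is counted above as its counterpart. MRPS18C was at 102, 379.9 and 151 TPM and MRPS18B at 125, 312 and 169 TPM. Both belong to the small subunit and both were highest in replicate 2. Without that replicate the mean of MRPS18C was 127 TPM, against 211 TPM with it. MRPS18A, of the large subunit, was at 13.22, 17.47 and 25.98 TPM, below both others in every library and highest in replicate 3. In the reference annotation MRPS18A lies wholly within other genes, among them RSPH9 at 0 to 2.76 TPM.

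Outside the named genes the levels formed a continuous range. In all, 17 members had a mean of at least 200 TPM, 7 between 100 and 200, 24 between 50 and 100, 14 between 20 and 50, and 13 below 20. Small subunit examples were MRPS6 at 288 ± 92.4, MRPS15 at 135 ± 16.8, MRPS14 at 87.7 ± 22.3, MRPS28 at 75.5 ± 13.7, MRPS22 at 50.2 ± 11.8, MRPS2 at 29.3 ± 7.66 and MRPS9 at 20.0 ± 5.18 TPM. Large subunit examples were MRPL41 at 279 ± 68.8, MRPL33 at 262 ± 47.2, MRPL15 at 183 ± 52.6, MRPL34 at 99.0 ± 13.5, MRPL55 at 84.7 ± 4.97, MRPL3 at 52.7 ± 7.61, MRPL4 at 39.2 ± 7.54 and MRPL19 at 20.1 ± 1.84 TPM. These examples were chosen after their values were seen.

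Mitoribosomal proteins whose names do not follow the MRP scheme fell within the same range. CHCHD1, of the small subunit, was at 289, 215 and 310 TPM. AURKAIP1 averaged 112 ± 20.3, GADD45GIP1 34.3 ± 13.1 and PTCD3 33.8 ± 11.3 TPM. DAP3, a GTP-binding small subunit protein, was at 3.81, 4.86 and 4.01 TPM, with a mean between those of MRPS31 and MRPL13. KGD4, once named MRPS36 and now known as a part of the oxoglutarate dehydrogenase complex, was at 46.2 ± 2.57 TPM.

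Compared with other genes that serve mitochondria or make protein, the members took a middle place. The median of 76 cytosolic ribosomal protein genes, 1347 ± 144 TPM, lay above that of the members. Members minus cytosolic genes gave -4.29, -4.49 and -4.21 on the log2(TPM + 1) scale in IVF replicates 1, 2 and 3, a mean of -4.33 ± 0.14. The 13 mRNAs encoded in mitochondrial DNA, which the mitoribosome translates, had medians of 1363, 3347 and 919.5 TPM, a members' difference of -4.59 ± 1.04. The 59 nuclear genes of oxidative phosphorylation with a row, of 76 listed, were nearest, at 132 ± 19.1 TPM, with a difference of -0.98 ± 0.11. The listed genes without a row were all of respiratory chain complexes III and IV, for which few genes, such as UQCRH and COX5A, had a row. This level is therefore not that of all nuclear oxidative phosphorylation genes. The SD of log2 means over genes was 1.90 among the members, 1.75 among cytosolic ribosomal proteins and 2.11 among oxidative phosphorylation genes.

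Genes that act with the mitoribosome stood lower. The 19 mitochondrial aminoacyl-tRNA synthetases and related enzymes, which charge its tRNAs, had medians of 1.05, 2.38 and 1.82 TPM, and 0 of 19 reached 10 TPM in all libraries. Members exceeded them by 4.63 ± 0.33 on the log2(TPM + 1) scale, and differences from the lists that follow are on the same scale. The highest of them were QRSL1, GATC and WARS2, at 7.42 ± 4.75, 6.48 ± 1.30 and 6.40 ± 1.60 TPM. The 23 assembly factors had a median of 4.92 ± 0.898 TPM, with members higher by 3.51 ± 0.15, and their top member was MALSU1, at 629.5, 491 and 532.5 TPM. MALSU1, which binds the large subunit before it joins the small, was far above FASTKD2 and RCC1L, the next at 24.2 ± 4.30 and 23.1 ± 2.69 TPM. ERAL1 and MRM2 of that list were listed at 0 throughout.

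The 15 translation factors and partners had a median of 21.3 ± 3.09 TPM, with members higher by 1.60 ± 0.36. SLIRP, which binds mitochondrial mRNAs, led them at 353 ± 104 TPM, followed by the release factor family gene MTRF1L at 189 ± 37.0 TPM and the membrane insertase gene OXA1L at 71.3 ± 7.95 TPM. The 23 genes for replication, transcription and processing of mitochondrial DNA and RNA had a median of 13.4 ± 0.299 TPM, with members higher by 2.22 ± 0.16. HSD17B10, REXO2 and the transcription factor gene TFB2M were highest, at 642 ± 192, 248 ± 74.5 and 202 ± 51.7 TPM. Differences from these 4 lists were above 0 in 3 of 3 libraries. The size of those from the synthetases and assembly factors depends on the pseudocount, since many of their genes are at a few TPM or less. That from the genes for replication, transcription and processing also fell, to 1.95, with a pseudocount of 5.

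**Figure D2:**
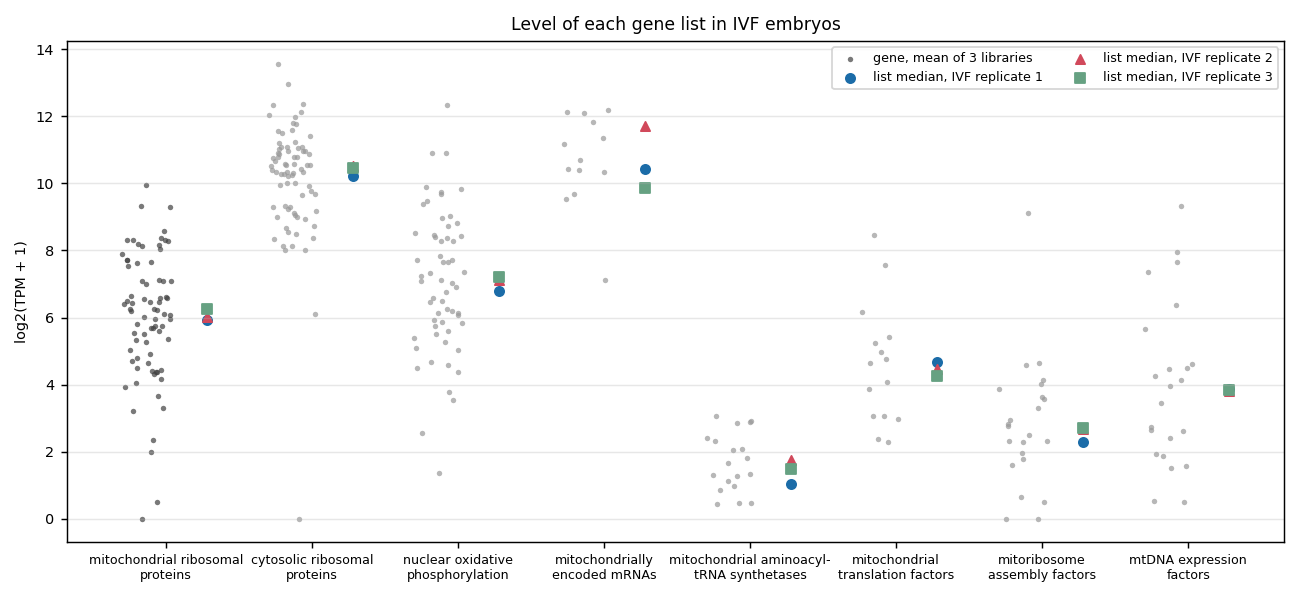
Grey and black points are single genes at their mean over 3 IVF libraries, and coloured marks are the list's median in each library, all as log2(TPM + 1). The members, in black at the left, lie below cytosolic ribosomal proteins and mitochondrially encoded mRNAs and above synthetases, translation factors and assembly factors, and the medians of mitochondrially encoded mRNAs differ most between libraries.

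The order of the members was largely kept from library to library. Across the 75 genes the Spearman coefficient was 0.872 for IVF replicate 1 with 2, 0.954 for 1 with 3, and 0.955 for 2 with 3. The points are genes, which are no replicates, and the libraries share the table's gene lengths, so the coefficients are a description with no p.

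Single members varied between libraries by widely differing amounts. For the 71 members that averaged 5 TPM or more, the range over libraries had a median of 0.60 on the log2(TPM + 1) scale, against 0.73 for 5765 symbol rows. At a mean of 20 to 200 TPM, the range was 1 or more, a change of at least 2-fold, in 11 of 45 members (24.4%) and in 28.5% of 2839 rows. The most even members were MRPS7 at 239.8, 232 and 242 TPM, MRPS24, MRPL45 and MRPL44. The values of the last 3 are given above.

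The least even were MRPL1, MRPL51, MRPS18C, MRPL23, MRPL57 and MRPS25. MRPL1, whose bacterial counterpart forms the stalk by the tRNA exit, was at 34.5, 136 and 89.0 TPM in IVF replicates 1, 2 and 3. MRPL51 was at 13.8, 55.8 and 25.3 TPM, and its mean of 31.6 TPM was 19.5 TPM without replicate 2. MRPL1, MRPL51 and MRPS18C were thus lowest in replicate 1 and highest in replicate 2. MRPL57 was at 495, 157 and 296 TPM and MRPS25 at 97.6, 30.8 and 75.5 TPM. These and MRPL23 had the opposite order, highest in replicate 1 and lowest in replicate 2.

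**Figure D3:**
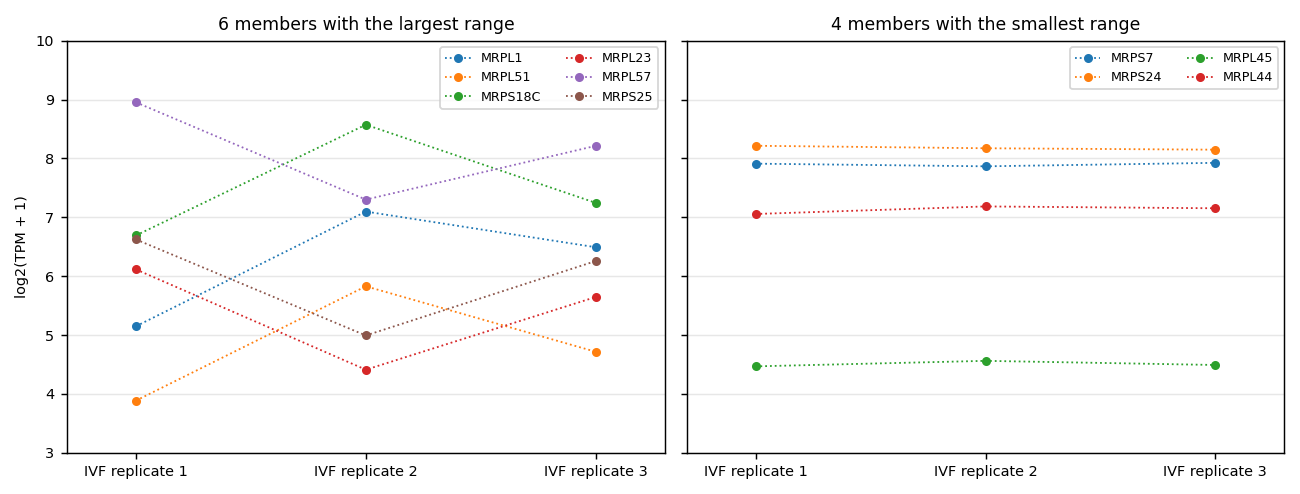
Level of single genes in each IVF library on the log2(TPM + 1) axis, with the 6 least even members on the left and the 4 most even on the right, and dotted lines joining the marks of each gene. On the left, MRPL1, MRPL51 and MRPS18C peak in replicate 2 where MRPL23, MRPL57 and MRPS25 dip, while MRPS7, MRPS24, MRPL44 and MRPL45 stay nearly level.

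As a group, the members were lower in IVF replicate 2 relative to other genes. Each library was set against the mean of the others for all 6978 rows that averaged 5 TPM or more, among them 71 members. In replicate 2 the members had a median log2 difference of -0.20, whereas the median of all rows was 0.19. Relative to all rows the members were thus at -0.40, and 50 of 71 lay below the median of all rows. In replicates 1 and 3 the members were at 0.20 and 0.25 relative to all rows, with 45 and 56 of 71 above that median. These are not separate observations, since each library was set against the others and a low replicate 2 raises the rest on average. Large and small subunit genes gave similar values in replicate 2, at -0.41 and -0.38. Of the 71 members, 36 (50.7%) had their lowest value in replicate 2, against 28.8% of all rows, and 20 (28.2%) had their highest value there, against 49.3% of all rows.

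Nuclear oxidative phosphorylation genes, nearly all outside complexes III and IV, stood beside them at -0.51 relative to all rows in replicate 2, with 43 of 57 below the median. Under quantile normalization they were at -0.30, with 39 of 57 below. The other nuclear lists did not all lie on that side, with 16 mtDNA expression genes at 0.37, 4 synthetases at 0.13 and 13 translation factors at -0.19. The 12 assembly factors were at -0.0030, and at 0.0057 under median-of-ratios scaling. Cytosolic ribosomal protein genes were at -0.08. Mitochondrially encoded mRNAs were at 1.36, with 13 of 13 above the median of all rows. Median-of-ratios scaling moved the median symbol gene by -0.24 in replicate 2, quantile normalization by -0.15, and TPM recomputed without mitochondrially encoded and cytosolic ribosomal protein genes by 0.29. In replicates 1 and 3 the shifts were 0.07 and 0.13, 0.04 and 0.14, and 0.23 and 0.25 in the same order. The removal of genes thus raised all libraries by similar amounts. Relative to all rows the members in replicate 2 were at -0.39, -0.32 and -0.41 under these settings. Cytosolic ribosomal proteins changed sign to 0.12 under quantile normalization. The 3 libraries are replicates of 1 condition, so these are differences between libraries.

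In each library most members, like most rows, were less than 2-fold away from the mean of the other libraries. In replicate 2, 7 of 71 members (9.86%) were at least 2-fold above the mean of the other libraries, against 12.8% of all rows, and 4 (5.63%) at least 2-fold below, against 3.85%. Those above were MRPS18C, MRPS18B, MRPL22, MRPL1, MRPL30, MRPL51 and MRPL47, and those below MRPL57, MRPS25, MRPL23 and MRPL14. In replicate 1, 2 members (MRPL57 and MRPL23) were above, against 5.65% of all rows, and 4 (MRPS18C, MRPL22, MRPL1 and MRPL51) below, against 7.71%. The members named for replicate 1 were all counted on the opposite side in replicate 2, so these are not separate observations. In replicate 3 there were 0 members above and 0 below, where 0.817% and 2.62% of all rows passed. Under median-of-ratios scaling, which lowered all genes of replicate 2 together, the counts there became 3 above (4.23%) and 11 below (15.5%), against 4.75% and 10.1% of all rows. With a pseudocount of 5 the counts there stayed at 7 above (9.86%) and 4 below (5.63%), but 7.18% and 2.02% of all rows passed. Whether members or all rows had the larger share above in replicate 2 thus depends on the pseudocount.

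**Figure D4:**
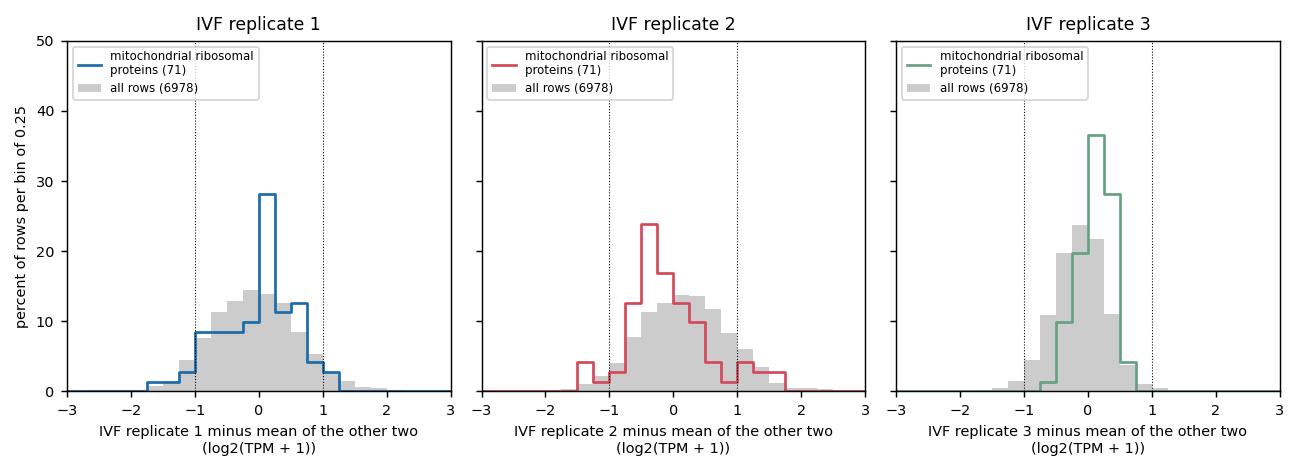
Each panel shows 1 IVF library minus the mean of the others on the log2(TPM + 1) scale, with all 6978 rows as grey bars and 71 mitochondrial ribosomal protein genes as a coloured outline, in percent of rows per bin. Dotted lines mark 2-fold. In replicate 2 the outline is centred at -0.20 while the bars are centred at 0.19, and in replicates 1 and 3 the outline lies to the right of the bars.

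Overlap with other genes touches some of these values, because reads from overlapping genes may be counted to either or to none where the counting method is not known. In the reference annotation 24 of 75 members overlap another gene, and 15 overlap a protein-coding one. MRPL41 lies wholly inside PNPLA7, yet was at 305.5, 200.4 and 329.7 TPM while PNPLA7 was at 0.0397 to 0.360 TPM. Among the least even and lowest members, MRPS12 overlaps SARS2, at 1.87, 3.97 and 6.16 TPM, and MRPL47 overlaps ACTL6A, at 10.6, 15.4 and 20.2 TPM. MRPS18C overlaps ABRAXAS1, which was at 32.1, 32.7 and 31.1 TPM and did not share the high value of MRPS18C in replicate 2. MRPS25 overlaps a long noncoding RNA, LOC114109336, at 112, 240.7 and 375 TPM. Among the examples given above, MRPS14 overlaps LOC114117245, at 245, 168 and 241 TPM, and MRPL55 overlaps GUK1, at 104, 61.1 and 101 TPM. With MRPS12 and MRPL47, these are the 4 members that overlap a protein-coding gene of higher mean level. The sources used here do not state whether strand was used in counting, so reads of such pairs cannot be told apart.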

How the data were processed

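PolyA RNA was reverse transcribed, amplified with 20 cycles of PCR and read from both ends over 150 bases, per the labels' protocols. The authors deposited one table of TPM for 31304 rows, and each column used sums to 1000000. The submitters' processing notes name fastp 0.23.4 and HISAT2 2.2.1. Which sheep genome build, annotation, counting tool and strand setting were used is not stated there or in the labels.

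Columns were assigned by name. A further 4 columns carry names found in no label, and they were left out of every step. The planned limma comparison of SCNT with IVF was therefore not made. Promoter and protein sequences were not used here. Members and lists were chosen with earlier results of these data known. Genes named were the 10 highest and 10 lowest members, any at 0, the 6 least and 4 most even, and a set with known roles, with further examples chosen after seeing values. Mitochondrial rows and overlaps come from the ARS-UI_Ramb_v3.0 gene table, whose build may differ from that of the deposited table.

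Logs were taken as log2(TPM + 1), on which changes of weakly expressed genes come out too small. The step that sets each library against the others was tested on simulated data with planted changes and little spread between libraries. The real libraries differ more, so that test gives no rate of false calls here. Python 3.11.15, numpy 2.4.6, pandas 2.3.3 and matplotlib 3.10.9 were used.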

Additional observations from a re-analysis of the deposited data

How the results depend on the processing

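No paired analysis was possible because only IVF libraries were used. Other settings for SCNT against IVF were not run, nor the one without MRPS36, since no row has that name, nor the promoter motifs. The median member, 66.2 TPM, was at 79.6 TPM and the members' share at 1.16% when mitochondrially encoded and cytosolic ribosomal protein genes were removed, because the remaining genes then fill the total. With a pseudocount of 0.1 the members exceeded synthetases by 5.23 and assembly factors by 3.73 (log2). With a pseudocount of 5 these were 3.40 and 2.84, and for mtDNA expression factors 1.95. With genes of a mean of at least 1 TPM only they were 4.13 and 3.04, since 5 synthetases and 4 assembly factors below that level are left out. Members at least 2-fold above in replicate 1 numbered 1 with a pseudocount of 5 (3.25% of all rows). That pseudocount left 7 above and 4 below in replicate 2 (all rows 7.18 and 2.02%). In replicate 2 median-of-ratios scaling gave 3 above and 11 below (all rows 4.75 and 10.1%). At 1.5-fold there were 12, 11 and 2 above in replicates 1, 2 and 3 (all rows 16.4, 28.6 and 3.68%). Below were 16, 12 and 0 in the same libraries (all rows 22.9, 12.7 and 13.4%). When each library was left out, the median member ranged from 62.0 to 69.4 TPM, the share from 0.939 to 1.002%, the large minus small difference from 0.08 to 0.19 and the bacterial minus mitochondria-specific difference from 0.35 to 0.62. Including the unmoved counts given above, 115 values under alternatives kept their direction, and changed by under 1 SD over libraries (counts: within 1.5 times). For counts this leaves aside the share of all rows. Of 225 levels of single members under other settings, 34 moved by more than 1 SD, all of them on that removal. Leaving out replicate 2 moved 4 members by over 1.5 times (MRPS18C, MRPL51, MRPL47 and MRPS12), and leaving out replicate 1 or 3 moved 0. Without depth, the sampling error of the low members is unknown.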
